A study of Mus musculus with 24 samples.

Results

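Brainstem and liver of wild type (WT) mice were compared on 8 of the 24 arrays of the series, 4 of brainstem and 4 of liver, chosen by the genotype and tissue in the labels. All 45037 probe sets that are not array controls were tested, a probe set being a group of short probes that read 1 stretch of a transcript. Of these, 28898 are paired with a single gene, which gives 17097 named genes. The remaining 16 arrays, of WT cerebellum and of CAG42 mice, entered the estimate of the spread between mice, and CAG42 liver and brainstem served for 1 comparison at the end.

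The 4 WT livers and 4 WT brainstems came from mice aged 18 months, 4 animals for each tissue, the wild type littermates of CAG42 mice, in which both copies of Atxn2 carry an expanded CAG repeat under the gene's own promoter. Whether the same animals gave both tissues is not stated in the sources used here. The line had been backcrossed into C57BL/6 for at least 8 generations. RNA was taken from whole tissue, and the sex of the mice was not given in the labels. Xist, the RNA that coats the inactive X chromosome, lay between 11.10 and 11.74 on the log2 scale in all 8 samples, while the Y-linked Uty lay between 2.97 and 3.42 and Kdm5d between 2.66 and 3.31. Eif2s3y, also Y-linked, lay between 4.48 and 5.84 in the livers and between 2.51 and 3.11 in the brainstems.

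Hepatocytes, which make up most of the liver, secrete nearly all plasma proteins, build and clear lipoproteins, make bile acids, detoxify foreign compounds, turn ammonia into urea and keep blood glucose steady between meals. The brainstem holds neurons that use glutamate, glycine, GABA and monoamines, together with densely packed myelinated tracts. Many enzymes and transporters exist as families of paralogs, related genes that arose by duplication, of which 1 member often serves the liver and another the brain: liver pyruvate kinase is switched off by a hormone-driven phosphorylation that the brain form lacks, and the liver glucose transporter has a low affinity while the neuronal transporter has a high affinity.

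Values below are log2 signals as deposited, and a difference is the mean of 4 livers minus the mean of 4 brainstems, so a positive value is a higher level in liver. A gene or probe set was called when limma's adjusted p (Benjamini-Hochberg over all 45037 probe sets) was under 0.05 and the difference was at least 2-fold. Each gene was read from its probe set of highest mean over the 8 arrays. Levels of different genes are not compared, because probes differ in brightness. In whole tissue, fewer cells of a type and less RNA per cell cannot be told apart.

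Of all probe sets, 6878 (15.3%) were called higher in liver and 13756 (30.5%) higher in brainstem. At the level of genes the counts were 2976 (17.4%) and 6157 (36.0%), and the median difference over all genes was -0.33. The split depended on the scaling: 33.3% of the calls were higher in liver with the deposited values, 50.1% after each array was centred on its median and 52.0% after quantile normalization, which moved the median difference of all probe sets by 0.41 and 0.21. Differences of 16-fold or more, which no such shift turns, were called for 481 genes (2.81%) in liver and 1139 genes (6.66%) in brainstem. All 4 livers lay above all 4 brainstems in 4976 genes (29.1%) and below them in 8034 (47.0%).

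The tissue labels held for every sample. Alb, the albumin gene, lay between 13.68 and 13.75 in the livers and between 3.04 and 3.31 in the brainstems. The mean of 19 neuron markers lay between 3.95 and 4.12 in the livers and between 10.90 and 10.93 in the brainstems. Liver 1 stood apart: 3173 of its probe sets lay more than 1 from the mean of the other 3 livers, against 193, 815 and 349 for livers 2, 3 and 4, and between 147 and 209 for the brainstems. Its correlation with the other livers was 0.954 to 0.976 and with the brainstems 0.656 to 0.662, while livers 2 to 4 correlated with the brainstems at 0.599 to 0.634. Without liver 1 the calls were 7239 in liver and 14329 in brainstem.

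The largest difference toward liver was that of Alb. It was at 13.69, 13.75, 13.69 and 13.68 in livers 1 to 4 and at 3.16, 3.31, 3.06 and 3.04 in brainstems 1 to 4, a difference of 10.56 ± 0.16 (SE; adjusted p = 1.23e-25). Fabp1, the fatty acid binding protein of hepatocytes and enterocytes, was at 13.10, 13.16, 13.11 and 13.21 in liver and at 2.83, 2.78, 2.87 and 2.82 in brainstem, a difference of 10.32 ± 0.14 (adjusted p = 3.86e-26). In both genes the tissues lay far apart and each tissue's samples lay close together. Next came Pzp (10.15), a protease-trapping plasma protein, Fgb (10.11) and Fgg (10.02), chains of fibrinogen, Hpd (10.09), which breaks down tyrosine, Serpinc1 (10.04), which is antithrombin, Apoa2 (10.02), a protein of high density lipoprotein, Bhmt (10.01), which remethylates homocysteine, and Kng1 (9.98), the kininogen precursor of bradykinin.

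The gene starts offered a look at what these genes share beyond their level. RefSeq (GRCm38.p6) lists a start for 384 of the 481 genes that were at least 16-fold higher in liver and for 877 of the 1139 at least 16-fold higher in brainstem; of each gene the first listed start was used. In the 250 bases before the start the median number of CpG dinucleotides was 3 in the liver group, 14 in the brainstem group and 11 among the 6340 genes that were not called. CpG observed over expected, the count of CpG divided by what the C and G content would give, had a median of 0.237 in the liver group, 0.640 in the brainstem group and 0.599 in the genes not called. The letters GTTAATNAT, a form of the HNF1 motif, stood on either strand in 5.73% of the liver group, 0.228% of the brainstem group and 0.737% of all 32851 promoters in the table. The HNF4-type letters CAAAGTCCA stood on either strand in 2.34% of the liver group, 0.228% of the brainstem group and 0.384% of all promoters. TATAAA on the sense strand between 40 and 16 bases before the start was found in 6.51%, 1.71% and 1.99% of them. TTGCNNAA, a C/EBP type, was present on either strand in 17.2%, 5.25% and 9.56%, and TGTTTAC, a FOXA type, in 5.21%, 1.37% and 3.17%. The median GC content of these 250 bases was 50% in the liver group, 61.2% in the brainstem group and 56.4% in the genes not called. The motif shares were not adjusted for this difference in base composition. Matches of different motifs may overlap, and the motifs were chosen with results of these data known. A match is a description of letters, and no binding was measured.

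**Figure D1:**
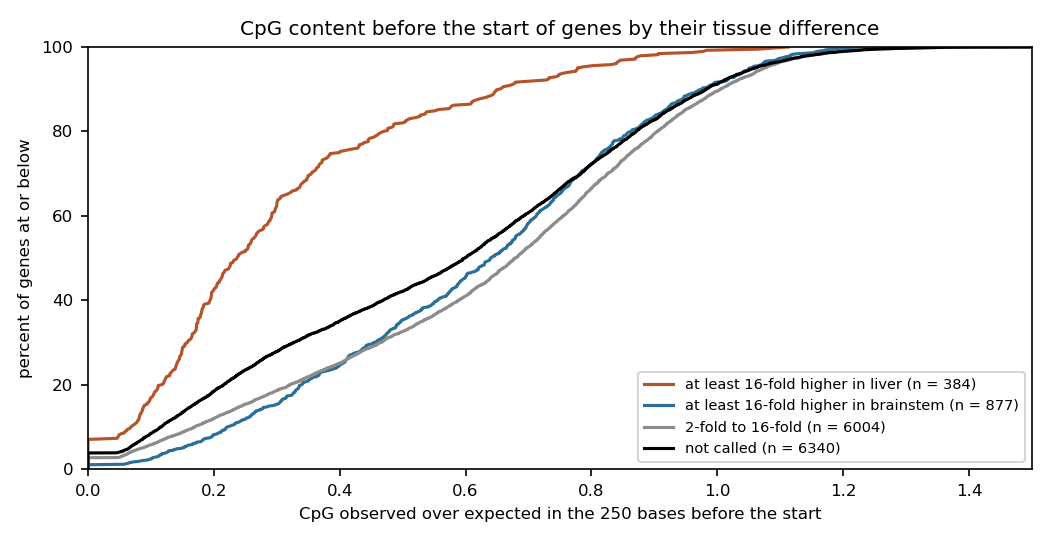
CpG observed over expected in the 250 bases before the gene start (horizontal axis) against the percent of genes at or below that value (vertical axis), for 4 classes of genes by their WT tissue difference. The curve of the 384 genes at least 16-fold higher in liver runs left of the other 3, with a median of 0.237 against 0.599 to 0.679.

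A set of 4 genes of the liver group that hold the HNF1-type letters are shown with the 150 bases that end just before the start, the match in capitals. They encode albumin, the alpha chain of fibrinogen, afamin (a vitamin E carrier related to albumin) and the hepatocyte uptake transporter of organic anions. The regions are chr5:90460720-90460869, chr3:83026003-83026152, chr5:90518799-90518948 and chr6:141629368-141629517 of GRCm38.p6, all on the plus strand. The matches start 32, 46, 138 and 66 bases before the gene start, in that order. Their log2 differences were 10.56 for Alb, 9.56 for Fga, 8.18 for Afm and 8.58 for Slco1b2.
Alb: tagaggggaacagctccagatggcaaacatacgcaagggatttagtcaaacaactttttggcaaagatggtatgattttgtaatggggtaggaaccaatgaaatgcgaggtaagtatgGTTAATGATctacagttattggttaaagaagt
Fga: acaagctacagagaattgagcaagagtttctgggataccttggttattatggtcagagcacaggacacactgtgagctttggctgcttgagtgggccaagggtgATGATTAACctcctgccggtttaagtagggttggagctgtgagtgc
Afm: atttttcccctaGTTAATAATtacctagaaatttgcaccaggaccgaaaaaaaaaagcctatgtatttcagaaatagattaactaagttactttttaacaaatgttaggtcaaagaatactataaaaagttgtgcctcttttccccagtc
Slco1b2: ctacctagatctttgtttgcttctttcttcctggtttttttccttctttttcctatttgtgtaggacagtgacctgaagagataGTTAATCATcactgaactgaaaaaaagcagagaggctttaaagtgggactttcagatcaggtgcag

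All 17 measured plasma proteins and carriers were higher in liver, with a median difference of 9.13 against the -0.33 of all genes. Kng1 (9.98), Azgp1 (9.42), a zinc-binding glycoprotein, Hpx (9.20), which carries heme, and Hrg (9.20), the histidine-rich glycoprotein, had the lowest p. Itih3 (1.78), a stabiliser of hyaluronan, and Trf (1.87), which is transferrin, had the smallest differences, at 10.38 and 11.47 in brainstem. The Serpina1 genes, which encode alpha-1-antitrypsin and share much of their sequence, so that their probe sets may not be told apart, were at 9.24 to 13.49 in liver. All 18 measured genes of coagulation and fibrinolysis were called higher in liver, with a median of 8.10. F2, which is prothrombin, was at 12.78, 12.78, 12.73 and 12.81 in liver and at 3.01, 3.07, 3.06 and 3.01 in brainstem, a difference of 9.74 ± 0.07 (adjusted p = 1.08e-30). The samples of each tissue lay within a narrow band. F13b (7.96), a carrier subunit of factor XIII, followed, and the smallest difference was that of Pros1 (2.04), which is protein S.

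All 17 measured complement genes were called higher in liver (median 6.55). Among them were Cfi (9.35), a protease that degrades C3b, the mannose-binding lectins Mbl1 (7.60) and Mbl2 (8.43), and C4bp (7.47), an inhibitor of C4. C4b, a component of the classical pathway, differed by 2.31 and was at 9.43 in brainstem. All 11 acute phase genes were higher in liver as well (median 6.23), with Hp (haptoglobin) at 9.64, Hamp (hepcidin) at 9.47, Crp at 8.23 and Saa4 at 7.87. Serpina3n, a protease inhibitor that reactive astrocytes make too, differed by 1.05, was at 8.77 in brainstem and was not called in CAG42 mice (0.81).

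Of 15 measured genes of lipoprotein assembly and handling, 14 were higher in liver and 1 was higher in brainstem, with a median of 8.43. Apoa1 was at 13.49, 13.72, 13.72 and 13.61 in liver and at 3.75, 4.48, 4.27 and 3.73 in brainstem, a difference of 9.58 ± 0.13 (adjusted p = 1.24e-26). The main protein of high density lipoprotein was thus near the top of the array's range in every liver and low in every brainstem. Apoc3 (9.71), which slows the clearance of triglyceride-rich particles, Apom (9.17), a carrier of sphingosine phosphate, and Apoc4 (8.89) went the same way. Pltp, the phospholipid transfer protein, went the other way: it was at 6.37, 5.71, 6.13 and 7.83 in liver and at 8.20, 8.22, 7.89 and 8.16 in brainstem, a difference of -1.61 ± 0.25 (adjusted p = 4.10e-06). It was not called after quantile normalization (-0.49), nor in CAG42 mice (-0.73).

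Bile acid synthesis and transport had 16 of 17 measured genes higher in liver (median 5.99). Slc27a5 (9.14), which activates bile acids for conjugation, the sodium-driven uptake transporter Slc10a1 (9.06), the organic anion transporter Slco1b2 (8.58) and the canalicular export pump Abcb11 (7.98) had the lowest p. Slco1a1, an organic anion transporter of male liver, was the gene not called, at 3.40 in liver and 3.26 in brainstem. All 16 measured cytochromes P450 of families 1 to 3, the main oxidases of drugs and steroids, were called higher in liver (median 8.72), led in p by Cyp2c70 (9.46), which makes muricholic acids, Cyp3a25 (9.09), Cyp2a5 (9.62) and Cyp2d26 (9.25). In the conjugating enzymes 14 of 15 were higher in liver (median 7.07), the glucuronosyltransferases Ugt2b34 (8.56), Ugt2b1 (8.11) and Ugt2b5 (8.81) and the related Ugt3a2 (8.48) first by p. Gstp1, a glutathione transferase, was at 12.03 in liver and 11.87 in brainstem and was not called.

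Nitrogen disposal followed the same course in 11 of 12 genes (median 4.43). Otc (9.16), which makes citrulline, Arg1 (9.50), which splits arginine, Cps1 (9.32), which feeds ammonia into the cycle, and Nags (5.35), which makes its activator, had the lowest p. Glud1, the glutamate dehydrogenase that both tissues use, differed by 0.66 and was not called. All 20 measured genes of amino acid breakdown were higher in liver (median 8.14). Mat1a, the methionine adenosyltransferase of adult liver, was at 12.42, 12.33, 12.28 and 12.31 in liver and at 2.87, 2.82, 2.87 and 2.84 in brainstem, a difference of 9.48 ± 0.07 (adjusted p = 3.90e-30). The samples of each tissue lay close together. Uroc1 (8.30) and Ftcd (8.32), which work in succession on histidine, belonged to the same group.

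All 12 measured genes of gluconeogenesis and glycogen were higher in liver (median 5.43), with Fbp1 (9.79), which is fructose bisphosphatase, Slc2a2 (8.50), the glucose transporter of hepatocytes, Gckr (7.56), which holds glucokinase in the nucleus, and Pygl (5.80), the liver glycogen phosphorylase. Ketogenesis and fatty acid oxidation showed smaller differences: 14 of 16 genes were higher in liver with a median of 2.44, led in p by Acaa1b (8.01) and Ehhadh (6.49) of the peroxisome and Acaa2 (4.22) and Acadm (2.56) of the mitochondrion. Cyp4a12a, a male-biased hydroxylase, was at 2.99 and 2.89, and Hadhb differed by 0.40. Fatty acid and triglyceride synthesis differed least among the metabolic lists, with 10 of 18 genes higher in liver and a median of 1.34. Mlxipl (5.30), the carbohydrate-responsive factor ChREBP, Dgat2 (4.35), which makes triglycerides, Elovl2 (3.97), which elongates polyunsaturated fatty acids, and Thrsp (3.94) were higher in liver, while Acaca, Acly, Me1, Elovl5, Elovl6, Lpin1, Dgat1 and Pnpla3 were not called. Of those not called, Acaca passed the 2-fold minimum after median centring (1.01) and quantile normalization (1.48). Acly (0.58 and 0.40) and Dgat1 (-0.39 and 0.33) did not. Scd1, the desaturase that makes oleate, was at 12.94 and 11.32, a difference of 1.62, and its other probe set gave 4.26.

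Of 19 measured hepatocyte transcription factors, 18 were higher in liver (median 4.55). Hnf4a, a nuclear receptor that hepatocyte identity needs, was at 10.96 to 11.21 in the 4 livers and at 2.96, 3.24, 2.98 and 3.02 in brainstem, a difference of 8.04 ± 0.11 (adjusted p = 1.39e-26). Nr1i3 (6.70), the receptor CAR, Creb3l3 (6.58), a factor of fasting and of hepcidin, and Nr1h4 (6.35), the bile acid receptor FXR, were next by p. Prox1, which neural progenitors and granule neurons also use, differed by 0.67 and was not called.

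Iron genes went mostly toward liver. Of 13 measured, 9 were higher in liver and 2 in brainstem (median 3.83), beside 17.4% and 36.0% of all genes. Hamp (9.47), Hamp2 (9.14), the protease Tmprss6 (6.82) and Tfr2 (5.99), which senses iron-loaded transferrin, were higher in liver. The probe set of Hamp2 is of a kind that also reads related transcripts, and its other probe set gave 0.38. Tfrc, the receptor by which cells take up transferrin, was at 6.49, 7.16, 7.42 and 8.51 in liver and at 9.65, 9.82, 9.69 and 9.81 in brainstem, a difference of -2.34 ± 0.25 (adjusted p = 7.01e-09). Heph, a ferroxidase of iron export, differed by -3.13 ± 0.12 (adjusted p = 4.94e-17). Bmp6 and Fth1 were not called, at -0.48 and -0.73.

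Genes of the zones of the liver lobule were read as well. Periportal genes were higher in liver in 9 of 10 cases (median 8.37), Hsd17b13 (8.44), a lipid droplet enzyme, Uroc1, Arg1 and Alb having the lowest p. The exception was Cdh1 (E-cadherin), at 6.08, 6.84, 4.93 and 3.92 in liver and at 4.31, 5.09, 4.40 and 4.37 in brainstem. Its livers overlapped with the brainstems (difference 0.90, adjusted p = 0.132). Pericentral genes were higher in liver in 7 of 10 cases and higher in brainstem in 2 (median 3.22). Gulo (8.08), which makes vitamin C, Cyp1a2 (8.65), Cyp2e1 (9.46) and Lect2 (8.12) were higher in liver, and the Wnt targets Axin2 (-1.92) and Lgr5 (-1.09) were higher in brainstem. Axin2 lost its call after quantile normalization, and Lgr5 after both other scalings.

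Genes of sex-biased hepatocyte expression divided by direction of bias. Among 10 male-biased genes 6 were higher in liver (median 1.97), and among 9 female-biased genes 8 were (median 6.69), beside 17.4% of all genes. The 8 include Cyp2b9 and Cyp2b13, in which livers 1 and 3 lay near the brainstems. Hsd3b5, Cyp4a12a, Slco1a1 and Elovl3, all male-biased, were at 2.99 to 4.01 in liver and were not called. C6 (3.40) and Cyp2d9 (3.14), of the same male-biased list, were higher in liver. The female-biased Cyp3a41a (8.76), Cyp17a1 (7.71), Hao2 (6.84) and Cyp3a44 (4.51) were higher in liver, and Mup3, a major urinary protein, was at 12.23, 10.27, 11.12 and 11.60 in liver (difference 8.45). Major urinary protein genes are near-identical, so the level may belong to any of them.

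**Figure D2:**
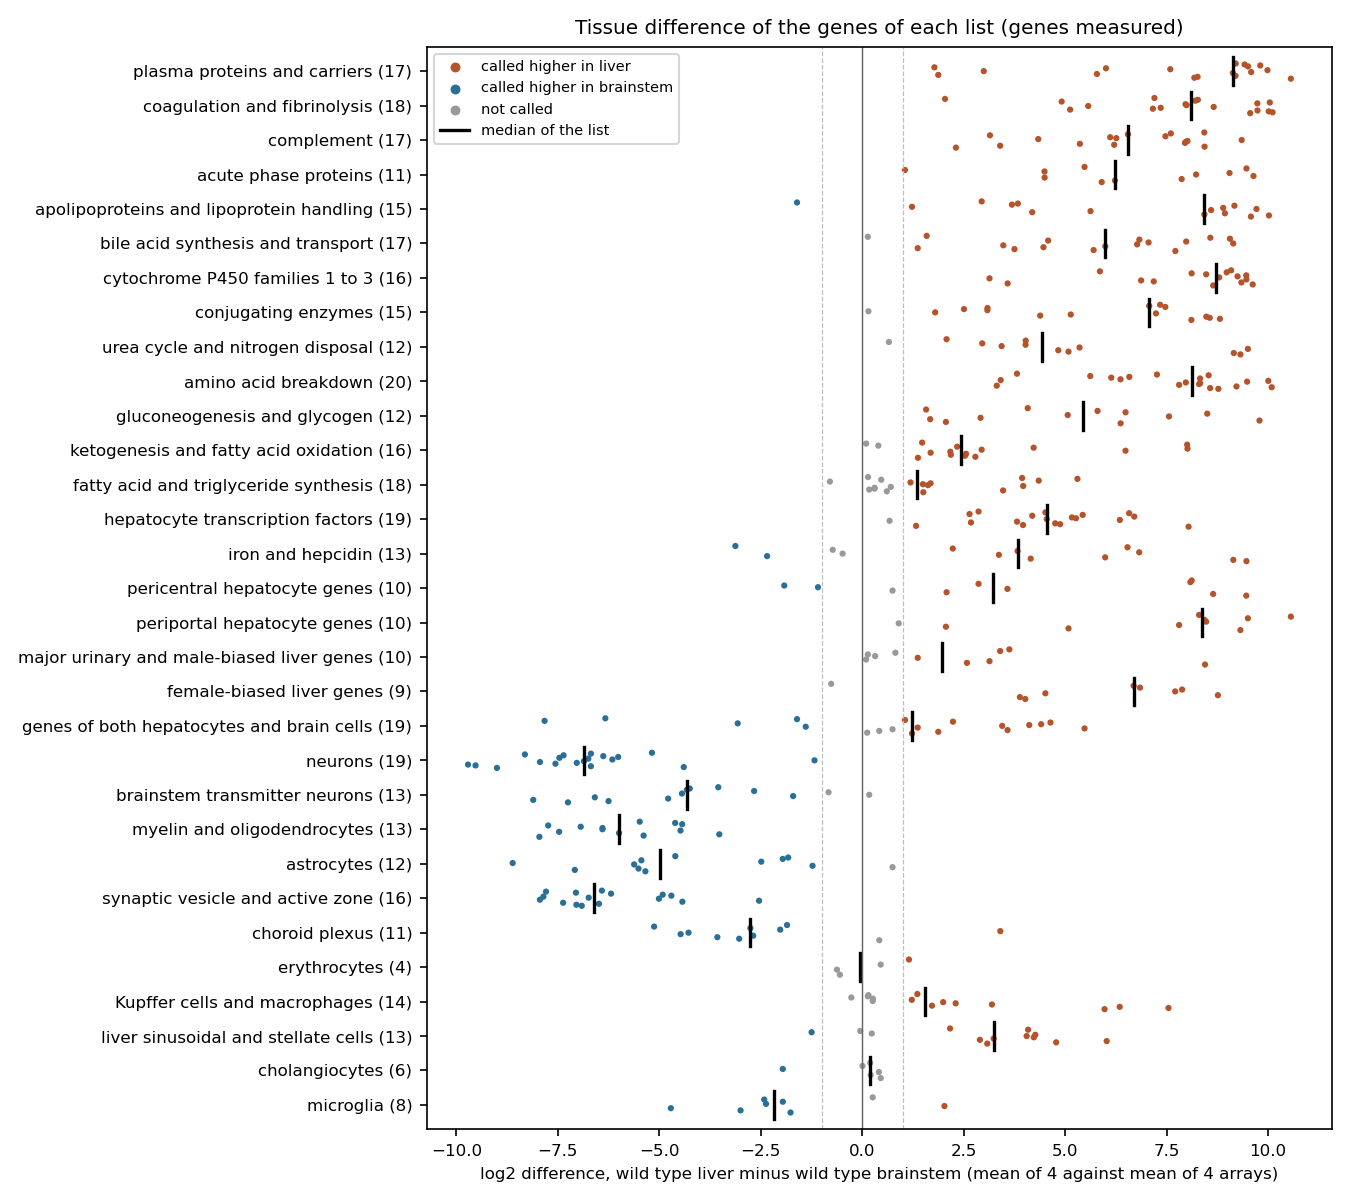
Each point is a gene, placed by its log2 difference between WT liver and WT brainstem (horizontal axis), in rows of gene lists with the number of genes measured in brackets; black bars are medians and dashed lines mark the 2-fold minimum. The medians of the 19 hepatocyte lists lie right of 0, from 1.34 to 9.13, and those of the 5 brain lists left of it, from -6.86 to -4.32.

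Over the 19 hepatocyte lists together, 231 of 257 measured genes were higher in liver, 5 were higher in brainstem and 21 were not called. In brainstem, 149 of the 257 had a mean below 4, near the low end of the array's range, and 42 had a mean of 8 or more. The 5 lists of neurons, transmitter neurons, oligodendrocytes, astrocytes and synapses held 73 measured genes, of which 70 were higher in brainstem and none in liver; 43 of them were below 4 in liver and none reached 8. The background shares are those given above, 17.4% and 36.0% of all genes.

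A list of 19 genes known in both hepatocytes and brain cells had 11 higher in liver, 5 higher in brainstem and 3 not called (median 1.23). The shares over all genes were 17.4% in liver and 36.0% in brainstem. Apoe, the lipoprotein ligand that astrocytes secrete too, was at 13.34 in liver and 12.11 in brainstem, a difference of 1.23. Ttr, the thyroxine carrier transthyretin, which liver and choroid plexus make, was at 13.06, 13.20, 13.19 and 13.11 in liver and at 13.09, 12.75, 12.37 and 12.66 in brainstem. The groups overlapped, and the difference was 0.42 (adjusted p = 0.295). Clu (clusterin) was at 11.87, 11.89, 11.71 and 11.83 in liver and at 11.73, 11.74, 11.65 and 11.70 in brainstem (0.12, adjusted p = 0.108). Slc38a3 (4.41), a glutamine transporter, and Igf1 (4.64), the growth factor of liver and brain, were higher in liver. Apod, a lipocalin of glia, was higher in brainstem by 7.83, being at 3.95, 4.21, 4.63 and 4.57 in liver and at 12.05, 12.23, 12.25 and 12.14 in brainstem (adjusted p = 1.14e-25). Sparcl1, an astrocyte matrix protein, was at 6.40 and 12.73.

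Markers of the choroid plexus, the tissue that makes cerebrospinal fluid, moved with Ttr among the brainstems. The mean over the 11 measured markers was 7.97, 7.41, 6.84 and 7.08 in brainstems 1 to 4 and 4.87 to 5.03 in the livers, and 9 of the 11 were called higher in brainstem, among them Ecrg4 (-5.13), Clic6 (-4.47) and Otx2 (-4.28). Of all genes, 36.0% were called higher in brainstem. Ttr is itself 1 of the 11 markers. Brainstem 1, highest in the marker mean, was also highest in Ttr, and brainstem 3 was lowest in both. The part of choroid plexus in the Ttr level was not tested. Cldn2, a claudin of choroid plexus that hepatocytes carry too, was higher in liver by 3.40.

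Other cells of the liver were visible as well. Their counts stand beside 17.4% of all genes called higher in liver and 36.0% called higher in brainstem. Among 14 markers of Kupffer cells, the resident macrophages, 9 were higher in liver, led by Cd5l (7.55), Vsig4 (6.34), Clec4f (5.97) and Cd163 (2.30), while Csf1r, Cd68 and the complement genes C1qa, C1qb and C1qc, which microglia carry too, were not called. Sinusoidal endothelial and stellate cell genes were higher in liver in 10 of 13 cases, among them Clec4g (6.02), Stab2 (4.78), Dnase1l3 (4.23) and Oit3 (4.05). Of the 6 cholangiocyte markers none was higher in liver, and Krt7 and Krt19, keratins of bile ducts, were at 3.52 and 3.27 there. Microglia genes were higher in brainstem in 6 of 8 cases (Cx3cr1 -4.72, Tmem119 -3.00), while Sall1 was higher in liver by 2.03. Haemoglobin transcripts were not called, with Hba-a1 at 12.43 in liver and 12.98 in brainstem.

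The largest difference toward brainstem was that of Nefl, the light neurofilament chain. It was at 2.87, 2.80, 2.95 and 2.87 in liver and at 12.65, 12.57, 12.56 and 12.56 in brainstem, a difference of -9.71 ± 0.07 (adjusted p = 2.38e-30). Next were Stmn3 (-9.53), which destabilises microtubules, Ndrg4 (-9.18), Aplp1 (-9.03), a relative of the amyloid precursor protein, Snap25 (-9.00), a SNARE of synaptic vesicle fusion, Nap1l5 (-8.97), S100b (-8.61), a calcium-binding protein of glia, Kif5c (-8.59), a kinesin motor, and Dnm1 (-8.55), the dynamin of synaptic endocytosis. Ints6 also ranked among them at -9.14, but only 1 of its 4 probe sets gave this value and the others lay between -1.01 and -0.14. All 19 neuron genes, all 16 synaptic genes and all 13 oligodendrocyte genes were higher in brainstem, with medians of -6.86, -6.61 and -5.99. Syn2 (-7.36), Vsnl1 (-8.31), Syt11 (-7.79), Sv2a (-7.04), Rims1 (-6.19), Ugt8a (-6.94), which makes myelin galactolipids, Mbp (-7.96) and Mag (-5.99) stood among those of lowest p. Of 13 transmitter genes 11 were higher in brainstem, with Gad1 (-8.11), which makes GABA, Slc17a6 (-7.25), Slc32a1 (-6.59) and the glycine transporter Slc6a5 (-6.25). Dbh and Slc5a7 were not called, though further probe sets of Dbh gave 1.34 and -1.27. Slc6a2 was called by its brightest probe set (-2.66), while others gave 1.61 and 1.29. Of 12 astrocyte genes 11 were higher in brainstem, among them Slc4a4 (-1.82), of which another probe set gave 1.08. Slc1a2, the main glutamate transporter of astrocytes, which pericentral hepatocytes also express, was at 7.17 in liver and 6.42 in brainstem and was not called; its other probe set gave -0.99.

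Paralog families were examined next, to see which related genes change places between the tissues. Of 61 families, 56 had at least 2 measured members. In 36 of the 56, at least 1 member was called higher in liver and at least 1 higher in brainstem; in 15 all called members were higher in brainstem and in 5 all were higher in liver. Of the 270 members measured, 95 were higher in liver, 113 higher in brainstem and 62 not called, which is 35.2% and 41.9% beside the 17.4% and 36.0% of all genes. No background was computed for the count of families. For 42 families both the member known from liver and the member known from brain were measured, and in 28 of these pairs the liver member was called higher in liver and its brain counterpart higher in brainstem. Members were chosen for what is known of these tissues, so the count describes the chosen families and not paralogs at large.

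Glucose handling changed members at several steps. Entry into the cell was read in Slc2a2, the low-affinity transporter, at 11.64, 11.27, 11.55 and 11.44 in liver and at 2.96, 2.91, 3.01 and 3.02 in brainstem, a difference of 8.50 ± 0.13 (adjusted p = 2.55e-25). Slc2a3, the neuronal transporter, was at 3.09, 2.94, 2.62 and 3.16 in liver and at 10.53, 10.47, 10.51 and 10.50 in brainstem, a difference of -7.55 ± 0.09 (adjusted p = 3.80e-27). The members differed in opposite directions, with no overlap between tissues in either. The Slc2a3 probe set is of a kind that can match several transcripts, and the brightest probe set of the gene without that mark gave 0.57. Slc2a1, the transporter of the blood-brain barrier, differed by -3.42, and Slc2a9, a urate transporter, by 3.55.

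Pyruvate kinase, the last step of glycolysis, was read in Pklr at 8.75, 7.77, 8.36 and 8.98 in liver and at 3.72, 3.38, 3.27 and 3.23 in brainstem (5.06 ± 0.23, adjusted p = 6.98e-16). Pkm was at 5.85, 5.98, 5.24 and 5.84 in liver and at 11.26, 10.98, 10.98 and 11.04 in brainstem (-5.34 ± 0.17, adjusted p = 8.02e-19). Neither gene's tissues overlapped. Lactate dehydrogenase showed the same in unequal measure, with Ldha, the form that favours lactate, higher in liver by 1.45 and Ldhb, the form that favours pyruvate, higher in brainstem by 6.40. Glycogen was read in Pygl (5.80) against Pygb (-5.46) and Pygm (-3.91) for breakdown, and in Gys2 (6.49) against Gys1 (-2.91) for synthesis. The phosphofructokinases did not exchange: Pfkl, the liver form, was itself higher in brainstem by 1.41, beside Pfkp (-5.93) and Pfkm (-4.30), although Pfkl lost its call after both other scalings. Of the hexokinases, Hk1 (-4.78), the form bound to mitochondria in brain, was higher in brainstem, and the other 3 members measured were not called.

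Lipid genes exchanged members as well. Fabp1 (10.32) stood against Fabp7 of astroglia, which was at 6.91, 7.38, 6.70 and 8.30 in liver and at 10.07, 9.67, 9.78 and 9.72 in brainstem (-2.49 ± 0.25, adjusted p = 2.96e-09), and against Fabp3 (-5.42) and Fabp5 (-1.25). Fabp5 was not called after median centring (-0.84), nor in CAG42 mice (-0.46, limma's adjusted p = 0.0575). Fabp2 (7.13) and Fabp4 (3.61) went with Fabp1. Carnitine palmitoyltransferase 1, the gate of fatty acids into mitochondria, was read in Cpt1a (2.79) and Cpt1c (-4.98), a neuronal form of the endoplasmic reticulum. Among fatty acid transport proteins, Slc27a5 (9.14) and Slc27a2 (4.93) stood against Slc27a4 (-1.85, not called after quantile normalization at -0.75) and Slc27a1 (-3.07). Acsl5 (2.45) stood against Acsl6 (-7.12), and Elovl2 (3.97) against Elovl4 (-4.70), which makes very long chain fatty acids. Sterol hydroxylases divided by route: Cyp7a1, which starts bile acid synthesis, was at 10.66, 10.50, 11.27 and 10.21 in liver and at 3.04, 2.98, 2.85 and 2.91 in brainstem (7.72 ± 0.15, adjusted p = 1.67e-23). Cyp46a1, by which neurons dispose of cholesterol, was at 4.87, 4.77, 4.61 and 4.27 in liver and at 8.99, 9.26, 9.31 and 9.20 in brainstem (-4.56 ± 0.20, adjusted p = 4.02e-16). Both routes of cholesterol removal were thus read in their own tissue. Abcg5 (6.58), which sends sterols into bile, stood against Abcg4 (-5.22).

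Transporters gave several of the widest exchanges, the width being the liver member's difference minus the brain member's. It was 15.6 for Slc38a4 (9.03) and Slc38a1 (-6.55), amino acid transporters of hepatocytes and neurons. Slc10a1 was at 12.29, 11.97, 12.12 and 12.10 in liver and at 2.99, 2.87, 3.28 and 3.10 in brainstem. Slc10a4, a relative found on vesicles of cholinergic and monoaminergic neurons, was at 2.69, 2.81, 2.77 and 2.85 in liver and at 7.85, 7.80, 7.95 and 7.59 in brainstem. This pair had a width of 14.1. Slco1b2 (8.58) stood against Slco1c1 (-5.05), the thyroxine transporter of brain capillaries, Slc17a2 (6.44), a phosphate and urate transporter, against the vesicular glutamate transporter Slc17a6 (-7.25), and Aqp9 (7.46), which lets glycerol into hepatocytes, against Aqp4 (-7.08), the water channel of astrocyte endfeet. Slc25a13 (4.02) and Slc25a12 (-3.06), the mitochondrial carriers of aspartate and glutamate, exchanged as well, and so did Slc7a2 (2.96) and Slc7a4 (-4.21). Tfr2 (5.99) and Tfrc (-2.34) formed the pair of transferrin receptors.

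Hormone-related and other families followed. Dio1, the deiodinase of liver and kidney, was at 10.17, 8.08, 8.06 and 9.51 in liver and at 2.81, 2.90, 2.96 and 2.62 in brainstem (6.13 ± 0.46, adjusted p = 1.24e-11). Dio2, which makes active thyroid hormone inside the brain, was at 3.22, 3.39, 3.17 and 3.07 in liver and at 7.79, 7.53, 8.15 and 7.69 in brainstem (-4.58 ± 0.16, adjusted p = 5.61e-18). The livers differed among themselves in Dio1 but did not overlap with the brainstems. Fgfr4 (4.26), the receptor through which gut FGF15 acts on bile acid synthesis, stood against Fgfr1 (-4.59). Serpina1c (8.93) stood against Serpini1 (-7.36), the neuronal inhibitor neuroserpin, Dpys (7.63), an enzyme of pyrimidine breakdown, against its non-enzymatic relative Dpysl2 (-4.08), which guides axon growth, Car3 (6.59) against Car2 (-4.78), Sult1a1 (4.38) against the brain sulfotransferase Sult4a1 (-7.65), and Cldn1 (3.15) against the myelin claudin Cldn11 (-6.40). Gjb2 (4.46), connexin 26, stood against Gjc3 (-1.94), and Vamp8 (2.19) against the synaptic Vamp2 (-4.43).

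**Figure D3:**
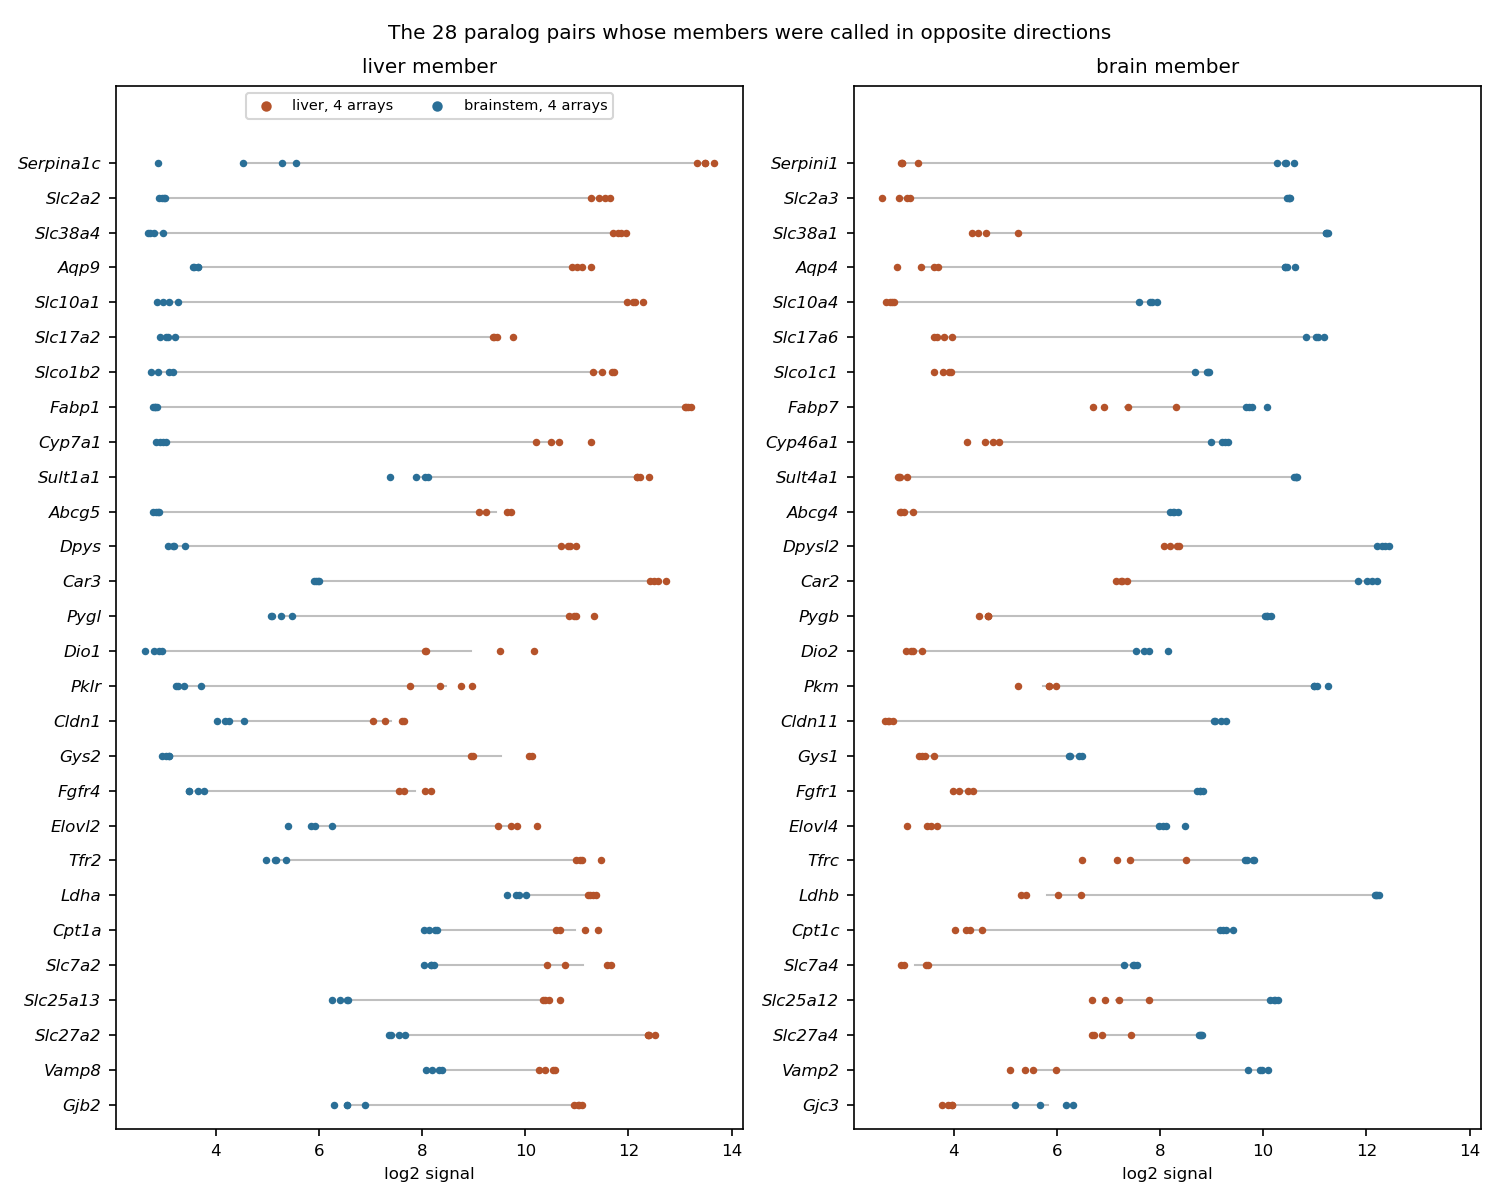
Log2 signal (horizontal axis) of the 28 paralog pairs whose liver member (left) was called higher in liver and whose brain member (right) was called higher in brainstem, 4 samples of each tissue, in order of the width of the exchange. In each of the 56 genes the liver samples and the brainstem samples do not overlap. These genes were chosen by their calls, so this follows largely from the choice. Over all genes, the livers lay above all brainstems in 29.1% and below them in 47.0%.

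Among the 28 exchanged pairs, 23 liver members and 18 brain members have a listed start, with medians of 3 and 12 CpG dinucleotides in the 250 bases before it. For 16 pairs both members have one, and in these the brain member had more CpG dinucleotides in 7 pairs, fewer in 7 and the same number in 2, with medians of 10.5 in brain members and 9.5 in liver members. A pair that differs and a brain member that holds none are shown, again as 150 bases before the start but with each CpG in capitals. Serpina1c (minus strand of chr12:103904951-103905100) held 3 in the full 250 bases, Serpini1 (plus strand of chr3:75557343-75557492) held 13, and Slco1c1 (plus strand of chr6:141524204-141524353), like its liver paralog shown earlier, held 0.
Serpina1c: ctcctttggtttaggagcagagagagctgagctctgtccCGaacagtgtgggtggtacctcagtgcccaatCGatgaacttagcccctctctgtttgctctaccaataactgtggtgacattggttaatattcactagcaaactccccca
Serpini1: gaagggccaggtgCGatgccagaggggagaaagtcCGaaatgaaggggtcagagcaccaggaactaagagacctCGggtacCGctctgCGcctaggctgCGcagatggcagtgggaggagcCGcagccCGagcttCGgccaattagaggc
Slco1c1: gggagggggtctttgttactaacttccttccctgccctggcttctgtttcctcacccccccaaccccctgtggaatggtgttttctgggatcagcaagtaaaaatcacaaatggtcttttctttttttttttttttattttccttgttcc

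In 14 pairs the exchange was not called. In some the brain member was lower in liver while its partner was not called: Eef1a1, a translation elongation factor, was at 12.88 and 12.85 while Eef1a2 differed by -6.88, and Prkar1a, a regulatory subunit of protein kinase A, was at 9.81 and 9.69 while Prkar1b differed by -7.02. A further probe set of Prkar1a gave -2.72. The metallothionein Mt1 was at 12.83, 12.77, 12.46 and 11.66 in liver and at 12.53, 12.54, 12.63 and 12.42 in brainstem (-0.10, adjusted p = 0.591), while Mt3, the brain form, differed by -4.50. Arg1 (9.50) stood beside Arg2, which was low in both tissues, at 3.17 and 3.56. Acacb (3.47), whose product restrains fatty acid oxidation, stood beside Acaca at 0.61. After median centring Acaca was at 1.01 and after quantile normalization at 1.48, also toward liver.

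In some other pairs both chosen members were called in the same direction. In the pairs of Thrb, Dnm2 and Atp7b, also given here, the liver member was not called. Atp1b1 (-3.82) and Tubb2a (-3.99), taken as the liver members, were higher in brainstem like their partners Atp1b2 (-8.15) and Tubb3 (-6.86). All 4 ErbB receptors were higher in liver, Erbb4, taken as the brain member, being at 4.68, 6.46, 6.91 and 6.52 against 3.26, 3.06, 3.29 and 3.26 (2.92 ± 0.30, adjusted p = 3.31e-09), by its only probe set. Map4, a microtubule-associated protein of wide expression, differed by -7.17 in its brighter probe set and by -0.28 in the other. Thrb, the thyroid hormone receptor known for liver, was at 3.09 and 3.08 by its single probe set and was not called (adjusted p = 0.889), while Thra differed by -6.01. Dnm2, of wide expression, differed by -0.86, and its 7 probe sets were called in both directions, up to 2.29 toward liver. Atp7b, the copper ATPase of hepatocytes, was at 3.84 and 3.14 and was not called beside Atp7a (-1.90), which lost its call after quantile normalization (-0.96). After median centring Atp7b differed by 1.11 and Atp7a by -1.49, both past the 2-fold minimum and in opposite directions.

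Probe sets of 1 gene did not always give 1 answer. Of 7180 genes with more than 1 probe set, 410 (5.71%) had probe sets called in opposite directions, 34 of them by at least 4-fold both ways. Among the 241 such genes of the lists and families the number was 8. Il1rap, a coreceptor of interleukin 1, gave 6.06 in 1 probe set and -2.61 in another, Masp1, a protease of the lectin pathway, 6.83 and -2.83, Tac1, the substance P precursor, -6.94 and 2.36, Ece2, an endothelin-converting enzyme, -4.12 and 2.51, and Rab3c, a vesicle GTPase, -7.86 and 2.67. These genes were named after their values were seen. Which transcripts the probe sets of each gene read was not tested.

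The array also holds precursors of microRNAs. Mir124-2hg, the host transcript of a neuronal microRNA gene, was at 2.64, 2.57, 2.64 and 2.44 in liver and at 9.15, 8.90, 9.03 and 9.13 in brainstem, a difference of -6.48 ± 0.08 (adjusted p = 7.87e-27). The mature microRNA itself was not measured. This gene too was named after its values were seen.

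Livers differed among themselves more than brainstems did. The median SD over all probe sets was 0.223 in liver and 0.131 in brainstem, and 270 against 95 probe sets had an SD over 1. Among hepatocyte list genes the median SD in liver was 0.183, against 0.239 for all genes, while 13 of the 257 (5.06%) had an SD over 1, against 107 (0.626%) of all genes. The widest gene was Cyp2b9, a female-biased cytochrome P450, at 3.61, 10.34, 3.25 and 11.15 in livers 1 to 4 and at 2.90, 3.40, 3.23 and 2.76 in the brainstems. Its relative Cyp2b13 was at 3.44, 9.60, 2.61 and 10.78. Livers 2 and 4 were high in both genes, and livers 1 and 3 lay near the brainstems, so the groups overlapped although both genes were called (adjusted p = 0.00219 and 0.00312). The 2 genes are close paralogs, and their probe sets may read each other's transcripts. The SD of Cyp2c39 came from liver 4, at 6.36 against 10.46 to 11.28, and that of Apoa4 from the same sample, at 9.98 against 11.73 to 12.32. Saa1, an acute phase protein, was at 8.84, 10.37, 7.10 and 10.62, and Saa2 at 8.47, 10.35, 7.53 and 10.65, in the same order of samples. Pnpla3, a lipase of lipid droplets, was at 3.97, 5.25, 5.91 and 8.85, and Serpina12, the adipokine vaspin, at 6.21, 4.88, 5.55 and 8.77, liver 4 being highest in both. Dct, a melanin enzyme that is no hepatocyte gene by the lists, was at 9.47, 3.40, 3.66 and 10.60.

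Liver 1 was highest in several genes. G6pc, which releases glucose from its phosphate, was at 10.97, 8.62, 8.68 and 9.23, Cyp8b1, which sets the share of cholic acid, at 10.20, 8.23, 7.41 and 8.50, and Rgs16, a rhythmic regulator of G protein signalling, at 10.44, 7.35, 7.25 and 7.38. In all 3 the tissue difference was still called without liver 1. Brain lists differed in where liver 1 stood. The mean of the neuron markers was 3.95 in liver 1 and 4.06 to 4.12 in the other livers. That of the oligodendrocyte genes was 3.89 against 4.01 to 4.05. Synaptic genes went the other way, at 3.96 in liver 1 against 3.80 to 3.81. For transmitter neuron and astrocyte genes liver 1 lay within the range of the other livers. The 3′ minus 5′ signal of the actin control was 1.09 in liver 1, 0.853 to 0.912 in the other livers and 0.642 to 0.813 in the brainstems, while that of Gapdh was 0.124 in liver 1, the lowest of the livers, 0.155 to 0.279 in the others and 0.0134 to 0.0798 in the brainstems. The part of RNA quality in the spread was not tested.

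**Figure D4:**
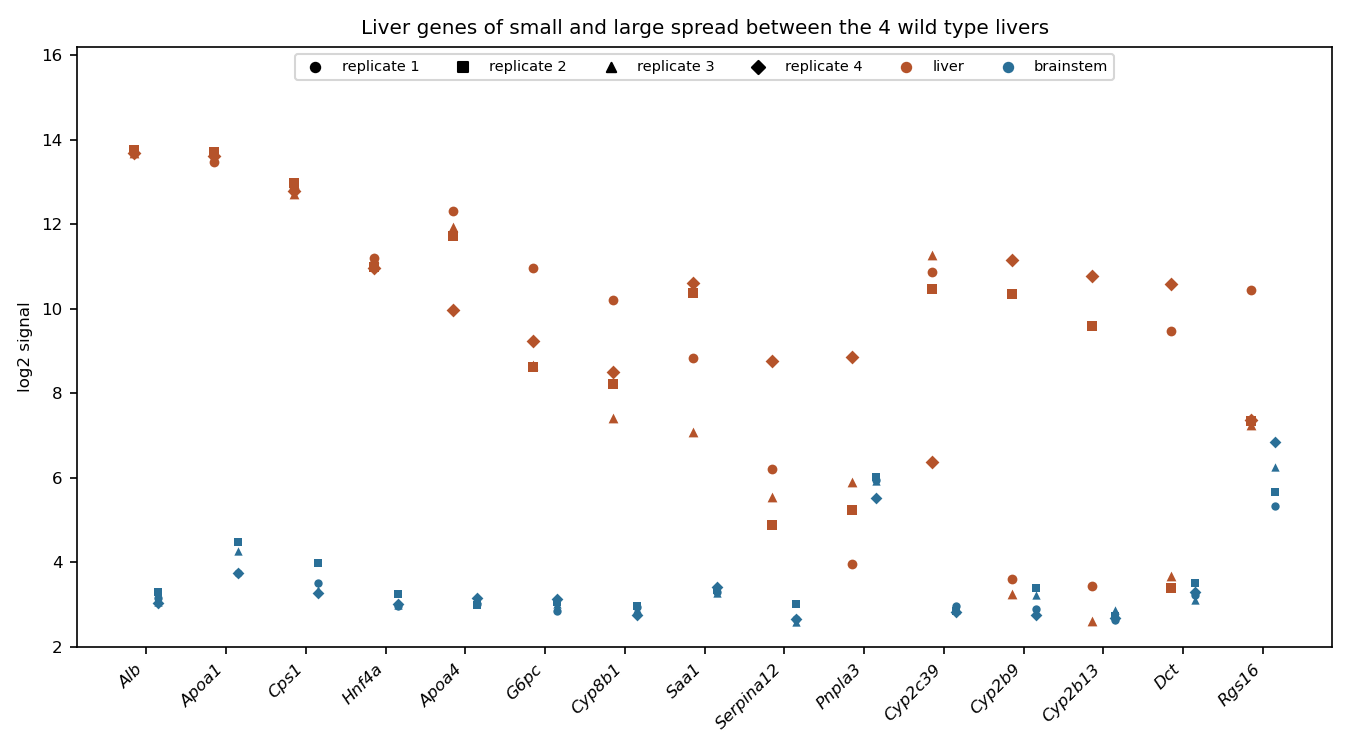
Log2 signal (vertical axis) of 15 genes in the 4 WT livers and the 4 WT brainstems, each shape a replicate number. Alb, Apoa1, Cps1 and Hnf4a are tight in liver, whereas Cyp2b9 spans 3.25 to 11.15 and Rgs16 is high in liver 1 alone.

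The brainstems differed in genes of position. Hoxa5, a homeobox gene of the caudal hindbrain and spinal cord, was at 8.28, 8.28, 6.45 and 6.49 in brainstems 1 to 4, Hoxb5 at 7.82, 7.70, 5.67 and 5.92 and Hoxc4 at 7.50, 7.55, 6.78 and 6.40. Peptides of hypothalamic neurons ran the other way, with Pmch, the precursor of melanin-concentrating hormone, at 7.37, 8.19, 9.68 and 11.44, Oxt (oxytocin) at 4.18, 4.67, 4.73 and 6.96, and Avp (vasopressin) at 4.53, 4.23, 4.37 and 8.61. Brainstems 1 and 2 were high in the homeobox genes, and brainstem 4 was highest in the peptides. In liver these genes were far lower than the highest brainstem, and for Oxt and Avp the other brainstems lay near the livers. They were named after their values were seen, and the part of dissection in these values was not tested.

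**Figure D5:**
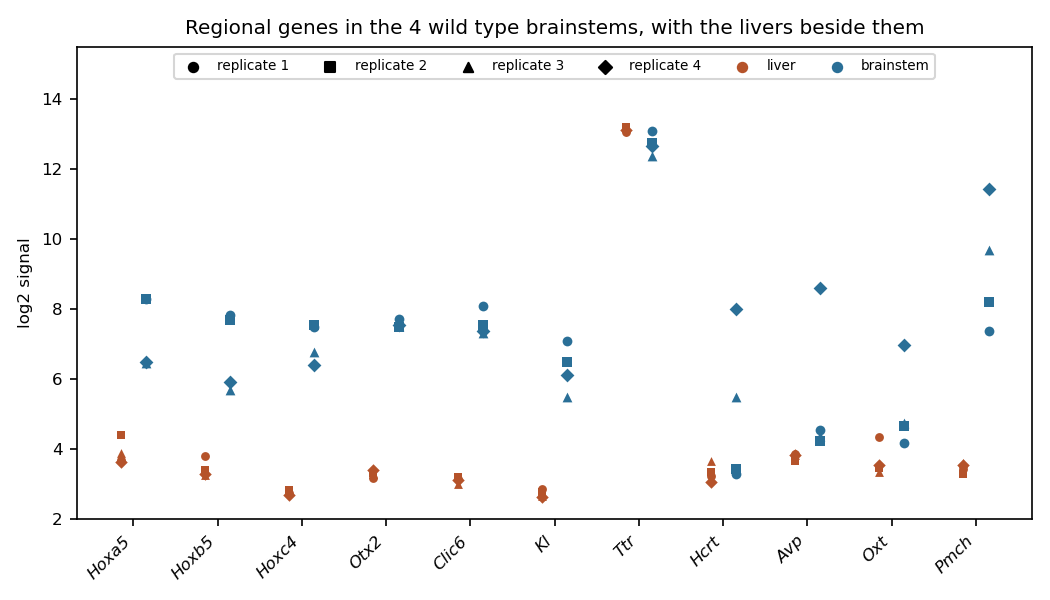
Log2 signal (vertical axis) of homeobox genes, choroid plexus genes and hypothalamic peptide genes in the 4 WT brainstems, with the livers beside them, each shape a replicate number. Hoxa5 falls from 8.28 in brainstems 1 and 2 to 6.45 and 6.49 in 3 and 4, while Pmch is lowest in brainstem 1 (7.37) and highest in brainstem 4 (11.44).

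The same contrast in the 8 CAG42 samples called 6650 probe sets (14.8%) higher in liver and 13469 (29.9%) higher in brainstem, from other mice though within the same fit. Of the 20634 WT calls, 19123 (92.7%) were made in CAG42 mice in the same direction, which is 95.0% of the CAG42 calls, and none was made in the opposite one. Alb differed by 10.62, Nefl by -9.65, Slc2a2 by 8.39 and Slc2a3 by -7.52 there. Cyp2b9 differed by 7.96 and Rgs16 by 3.51, against 4.02 and 2.08 in WT. In limma's test of the difference between the genotypes, 2111 of 45037 probe sets had an unadjusted p under 0.05. That is no more than chance alone gives over so many tests. After adjustment 4 probe sets (0.00888%) passed. The only named one read Kdm2b, a histone demethylase, which was at 6.37, 5.90, 5.60 and 5.41 in WT liver and at 7.20, 7.01, 7.14 and 7.23 in WT brainstem, a difference of -1.33 against 0.22 in CAG42 mice (limma's adjusted p of the interaction 0.00072). Kdm2b was at 7.33 in CAG42 liver and 7.11 in CAG42 brainstem, and the cause of the difference between genotypes was not tested. In WT it was not called after median centring (-0.92) or quantile normalization (-0.20).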

How the data were processed

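RNA of brainstem, cerebellum and liver of WT and CAG42 mice was read on 24 mouse arrays, 4 for each tissue and genotype. The authors deposited log2 values made with RMA, per the labels in R 2.7.0, which subtracts background, equalises arrays and sums the probes of a probe set. The labels name RNeasy Midi columns and 1 ug of total RNA, while the study's methods name 100 ng and a 3′ labelling kit. The methods name the MOE430 2.0 array, whereas the probe set names are those of its perfect-match version. Arrays hold no read depth, so their number limits the precision.

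From 45141 probe sets 104 controls were left out. Genes came from the platform annotation, which gives 28898 probe sets a single gene, 551 several and 15588 none; a gene not listed there was not analysed here. In limma 3.58.1 (R 4.3.3) a mean for each tissue and genotype was fitted over 24 arrays, with eBayes and Benjamini-Hochberg adjustment. A call needed an adjusted p under 0.05 and a difference of 1 on the log2 scale. Each gene was read from its probe set of highest mean over the 8 WT arrays. Other scalings, filters, fits and left-out arrays were tried. The members, lists, families and motifs were chosen with earlier results of these data known.

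Named genes were the 10 largest calls in each direction, up to 4 genes of lowest p in each list with the 2 farthest against its side, the family members chosen for each tissue, and the gene of largest liver SD in each hepatocyte list. Further members of lists and families, and single genes that stood out, are named beyond this rule and were picked with their values in view. The fit was run on simulated data of 45037 probe sets, of which 200 were changed. Of the 67 changed by 2.0 on the log2 scale, 98.5% were recovered. In the WT arrays 20634 probe sets were called, far more than were changed in the simulation. The recovery in the real data can therefore not be read from this run. Replicate numbers were not used as pairs: samples of the same number correlated at 0.0838, 0.161, 0.0894 and 0.127 in their deviations, not all over 0.1. Each liver did correlate best with the brainstem of its own number, so a pairing is not excluded. Fits with the numbers as blocks are given below.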

Additional observations from a re-analysis of the deposited data

Results flagged for a closer look

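A single array lay far from the other 3 of its tissue, by Dixon's test, in 33 of 548 groups of 4 arrays examined for the genes named here (6.02%). Chance flags about 1 in 20 such groups. The largest distances were in Rgs16, at 10.44 in liver 1, Avp, at 8.61 in brainstem 4, and Cyp2c39, at 6.36 in liver 4. In liver the far array was also that of Me1 at 8.93, Mbl2 at 11.01, Afm at 11.06, Apom at 11.97, Fga at 12.42, Bhmt at 12.54, Slc27a2 at 12.52, Trf at 13.33, Alb at 13.75, Aplp1 at 2.88, Serpini1 at 3.32, Pygb at 4.49 and Thra at 4.83. In brainstem it was that of Cdh1 at 5.09, Lgr5 at 7.15, Cx3cr1 at 8.16, Acaca at 8.17, Slco1c1 at 8.67, Map4 at 10.13, Hadhb at 10.48, Tubb3 at 10.49, Gstp1 at 11.77 and Nefl at 12.65. In genes low in brainstem it was that of Cyp3a41a at 2.63, Hsd17b13 at 2.66, Nags at 2.91, Erbb4 at 3.06, Arg1 at 3.11, C4bp at 3.23 and Cyp2e1 at 3.45.

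The tissue difference itself differed between WT and CAG42 mice, by limma's interaction term, in 4 probe sets. WT minus CAG42 was -1.55 for Kdm2b (adjusted p = 0.00072), and -2.55, -1.98 and -1.10 for 3 probe sets with no gene name in the annotation (adjusted p = 0.00072, 8.83e-05 and 0.0399).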

How the results depend on the processing

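Centring each array on its median gave 10765 probe sets higher in liver and 1 brain list gene higher in liver. Quantile normalization gave 3979 genes higher in brainstem, 2 hepatocyte list genes higher in brainstem and 1 brain list gene higher in liver. With probe sets of mean at least 6 in either tissue, 2759 probe sets and 1509 genes were higher in liver. With no fold minimum, 15449 probe sets were higher in liver and 20957 in brainstem, 5720 genes were higher in liver, 8 hepatocyte list genes in brainstem and 1 brain list gene in liver. Averaging a gene's probe sets gave 3 hepatocyte list genes higher in brainstem. Without probe sets of suffix s, x or a, 23 pairs exchanged and 33 families had members called both ways. Exchanged pairs numbered 27 with quantile normalization or averaged probe sets, and 29 with median centring. Leaving out 1 array at a time gave 6642 to 7239 probe sets higher in liver and 13397 to 14329 in brainstem, 2913 to 3079 and 5971 to 6397 genes, 230 to 231 hepatocyte list genes in liver and 4 to 6 in brainstem, 70 brain list genes in brainstem and 0 in liver, 35 to 36 families and 28 exchanged pairs. Replicate numbers were not taken as pairs, since not all same-number correlations were over 0.1. Each liver still correlated best with the brainstem of its own number (4 of 4), at 0.0838 to 0.161 against at most 0.0272 for other numbers. Whether equal numbers mark the same mouse was not settled by this check. With the replicate block 6882 and 13764 probe sets were called, and as a random block 6879 and 13756. With the 8 WT arrays alone in the fit, 229 hepatocyte list genes were higher in liver, against 231 with all arrays.

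Some single genes turned sign. After median centring Arg2 was at 0.027, Mt1 at 0.31 and Xist at 0.083. After quantile normalization Cdh2 was at 0.42, Dnm2 at 0.29, Eef1a1 at -0.084, Kdm5d at -0.064, Lpl at 0.30 and Thrb at -0.11. With array weights Thrb was at -0.091. With probe sets averaged within a gene, Mt1 was at 0.64 and Prkar1a at -0.90. Without probe sets of suffix s, x or a, Mt1 was at 1.39, Prkar1a at -2.72, Slc2a3 at 0.57, Trem2 at 1.04 and Uty at -0.0028. Leaving out 1 array at a time moved Eef1a1 from -0.013 to 0.073, Kdm5d from -0.016 to 0.199, Mt1 from -0.24 to 0.16, Pnpla3 from -0.81 to 0.82 and Thrb from -0.11 to 0.095, the turn coming without brainstem 3, liver 3, liver 4 and liver 4, in that order, and for Thrb without liver 1 or brainstem 3. Without livers 1 and 3 Thrb was at -0.13. In CAG42 mice Alas2 was at -0.25, Eef1a1 at -0.066, Kdm2b at 0.22, Lpl at 0.30, Mt1 at 0.0062 and Prkar1a at -0.069. The causes were not tested.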
